A study of Mus musculus with 4 samples.

Results

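Interleukin 4 (Il4) and interleukin 13 (Il13), the 2 cytokines that define type 2 help, were followed together with Gata3, Il4ra and Zbtb16 in single splenic T cells after 6 h of stimulation. The 5 genes were taken by symbol from the 32285 genes of the deposited count tables. The study sorted CD3+CD4+ T cells from spleens of C57BL6/J mice. It stimulated them for 6 h with beads carrying antibodies to CD3 and CD28, in RPMI medium with fetal bovine serum, and counted messenger RNA 3′ ends in droplets as unique molecular identifiers (UMIs). There were 4 libraries, 1 for each sex and genotype label: female Irf5-/-, male Irf5-/-, female wild type (WT) and male WT. All 4 shared the tissue, the sort, the medium and the beads, so no unstimulated cells were measured. The labels gave neither the age or number of mice behind a library nor any batch or date. The p-values below therefore measure the spread between these libraries, which may be technical. With sex as a term, the fits by label leave 1 degree of freedom per gene, and the test pools information on spread over all genes.

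Irf5, the deleted gene, went against the labels. Its UMIs in kept cells numbered 293 (female) and 432 (male) with the knockout label, and 15 (female) and 55 (male) with the wild-type label. The edgeR log2 fold change was 2.94 ± 0.18 (SE), with a Benjamini-Hochberg adjusted p of 6.0e-07. The 3′ counts show transcript ends and do not show whether the product was intact. Groups are therefore named by label only, and every direction below is from the libraries labelled wild type to the libraries labelled knockout.

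A barcode was kept as a cell when it had at least 2000 UMIs, at least 500 genes and at most 10% mitochondrial UMIs. This left 19100 cells: 6178 (female) and 6543 (male) labelled knockout, and 1814 (female) and 4565 (male) labelled wild type. Total depth ran from 28841161 to 55850754 UMIs. Median UMIs per kept cell were 5104.5 and 6741 in the female and male libraries labelled knockout, and 8416 and 9661 in those labelled wild type. Barcodes under 200 UMIs, which hold free RNA and no cell, took 36.2% of all UMIs in the female library labelled wild type and between 8.62% and 14.7% in the other 3. Between libraries, 43 kept barcodes occurred more than once. Levels are given as CPM, the gene's UMIs scaled to the total UMIs of the same cells, and all intervals cover counting error only.

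Il4 and Il13 are secreted cytokines whose genes lie side by side and are read in the same T cells. The IL-4 receptor alpha chain, the product of Il4ra, is part of the receptors for both cytokines, which signal through STAT6. GATA3 is the transcription factor that opens the cytokine locus in T helper 2 cells, and it is also active in part of the regulatory T cells. Zbtb16 encodes PLZF, the factor that gives innate-like T cells, among them natural killer T cells, a store of cytokine messenger RNA before they meet antigen. NFAT, a factor set free by calcium signalling after the T cell receptor is engaged, binds cytokine promoters.

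In mouse build GRCm38, Il4 (ENSMUSG00000000869) lies on the minus strand of chromosome 11 from 53602982 to 53618669. Il13 (ENSMUSG00000020383) lies on the same strand from 53631324 to 53634702, with 12654 bases between them. Gata3 (ENSMUSG00000015619) lies on chromosome 2 from 9857078 to 9890034, on the minus strand. Il4ra (ENSMUSG00000030748) lies on chromosome 7 from 125552120 to 125579474, on the plus strand. Zbtb16 (ENSMUSG00000066687) lies on chromosome 9 from 48654297 to 48836222, on the minus strand.

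The 250 bases before the RefSeq start of each cytokine gene (GRCm38.p6) are shown because these genes were counted in the same cells, as given below. Both windows are printed 5′ to 3′ on the gene's own strand, chr11:53618666-53618915 for Il4 and chr11:53634703-53634952 for Il13. Capitals mark GGAAA, the core of NFAT sites, which reads as TTTCC on the other strand. In the Il13 window they also mark AGATAA, which is a motif of GATA factors. Another form, TGATAA, was searched on both strands too and has no match in either window.
Il4 promoter: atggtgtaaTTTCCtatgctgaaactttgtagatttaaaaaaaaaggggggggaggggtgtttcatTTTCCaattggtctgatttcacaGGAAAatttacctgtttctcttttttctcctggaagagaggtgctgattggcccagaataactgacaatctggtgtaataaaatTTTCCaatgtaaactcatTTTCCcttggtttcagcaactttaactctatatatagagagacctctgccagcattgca
Il13 promoter: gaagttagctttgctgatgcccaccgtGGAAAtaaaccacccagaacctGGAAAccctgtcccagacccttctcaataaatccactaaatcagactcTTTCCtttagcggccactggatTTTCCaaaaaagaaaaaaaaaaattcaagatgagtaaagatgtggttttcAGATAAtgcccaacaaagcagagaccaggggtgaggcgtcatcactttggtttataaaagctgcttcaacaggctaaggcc
Each match is a run of letters and was not tested as a binding site. The Il4 window holds 5 matches to the NFAT core and the Il13 window holds 4, where 6.39% of the 32851 RefSeq promoter windows of this length hold 3 or more. A single match or more was found in 55.6% of all windows. The Il13 window has 1 AGATAA, from 81 to 76 bases before the start, and 9.99% of all windows hold that motif on either strand. Windows of Gata3 and Il4ra held 2 and 1 NFAT core matches and no GATA match. Another RefSeq start of Il4, with its window from 53617339 to 53617588, had neither motif.

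Il4 was held by few cells. It had 415 UMIs in 85 cells of the female and 622 UMIs in 99 cells of the male library labelled knockout. The libraries labelled wild type held 55 UMIs in 22 cells (female) and 145 UMIs in 45 cells (male). Over the 4 libraries 251 of 19100 cells (1.31%, exact binomial 95% interval 1.16% to 1.49%) held any Il4 UMI. Of these, 128 held exactly 1 UMI, and 90 cells with 3 or more held between 67.3% and 87.9% of each library's Il4 UMIs. The highest cell held 38 and 87 Il4 UMIs in the female and male libraries labelled knockout, and 10 and 27 in the female and male libraries labelled wild type. In each library the 5 highest cells held from 36.1% to 60.0% of the Il4 UMIs.

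**Figure D1:**
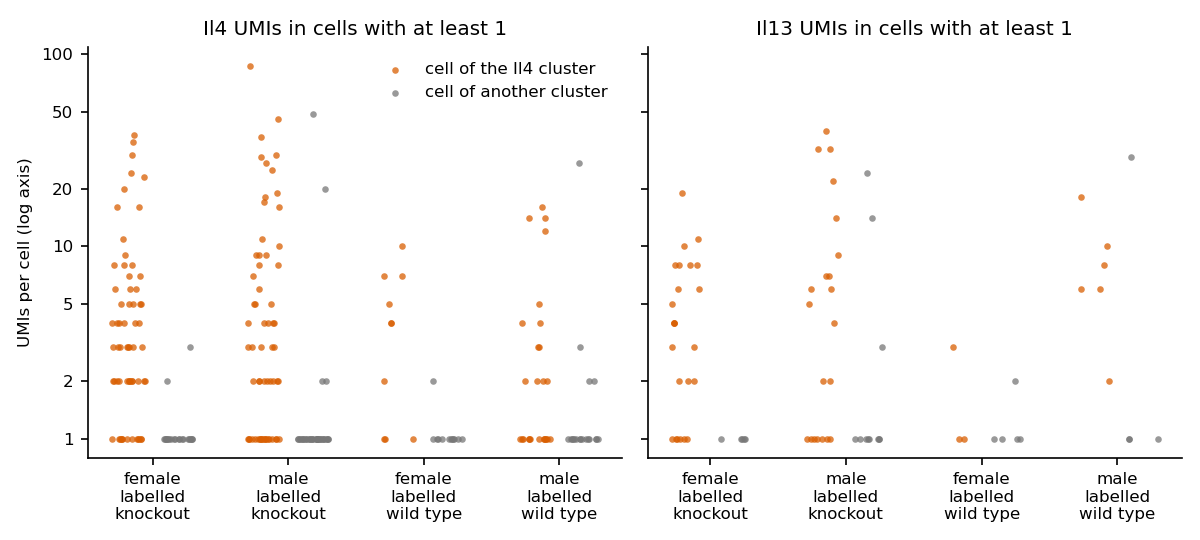
UMIs of Il4 (left) and Il13 (right) in each kept cell with at least 1 UMI, on a log axis, by library; 1 point is 1 cell, spread sideways at random, orange inside and grey outside the cluster with the most Il4 UMIs. Outside that cluster 79 of 90 Il4 cells lie at 1 UMI, with single cells at 49, 27 and 20, and 20 of 25 Il13 cells lie at 1 UMI, with 4 at 3 or more and the highest at 29.

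Cells were put in classes in a fixed order: at least 1 Zbtb16 UMI, then at least 1 Foxp3 UMI, then at least 2 S100a6 UMIs, then none. Foxp3 marks regulatory T cells and S100a6 is raised in memory T cells. The classes held 257, 855, 71 and 17917 cells. The Zbtb16 class, 1.35% of all cells, held 961 of the 1237 Il4 UMIs. Per library this was 77.8% and 81.5% in the female and male libraries labelled knockout and 63.6% and 66.2% in those labelled wild type. The groups did not overlap, but an exact two-sided permutation test of 2 against 2 libraries gave p = 0.333, the smallest it can give. With at least 2 Zbtb16 UMIs as the class limit the difference turned round, from 14.7 to -14.1 percentage points.

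Il4 stood at 689 CPM (female) and 604 CPM (male) in Zbtb16 cells of the libraries labelled knockout. In those labelled wild type it stood at 141 CPM (female) and 234 CPM (male). Cells of no class held between 1.06 and 2.79 CPM in every library. Foxp3 cells held 4 Il4 UMIs among 855 cells and S100a6 cells held 3 among 71. Against cells of no class, with library as a term, edgeR's quasi-likelihood test gave a log2 difference of 7.50 ± 0.18 for Il4 in Zbtb16 cells (adjusted p = 1.2e-24, Benjamini-Hochberg), and Zbtb16 cells were higher in all 4 libraries. Il4 and Gata3 were called of the 3 members tested there, Il13 being described only, as given below, and 29.1% of all genes tested were called in that comparison. Zbtb16, Foxp3 and S100a6 set the classes and got no test.

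The cells were also clustered with all 5 genes, Foxp3 and S100a6 left out. One of 16 clusters, of 335 cells, led by Xcl1, Il4, Cxcr6, Zbtb16, Trf and Ccr2, held 1044 of the 1237 Il4 UMIs (84.4%) and 369 of the 461 Il13 UMIs (80.0%). It is called innate-like T-like here, since 6 of the 10 innate-like markers were among its leading 30 genes, and is named the Il4 cluster below. It took 2.30% and 1.83% of the cells of the female and male libraries labelled knockout, and 1.71% and 0.920% of those labelled wild type. In it 161 cells (48.1%) held an Il4 UMI, at a median of 5954 UMIs per cell. In the 2 clusters led by Rflnb and Cnp and by Cmah and Rflnb, 19 of 3935 cells (0.483%) did at a median of 4328 UMIs, so that a share near this level is read as background. None of 22 cells with B cell markers held Il4, which allows a share of up to 13.6%.

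Neither definition contains the other. Of the 257 Zbtb16 cells 200 (77.8%) were in the Il4 cluster, and 135 cells of the cluster had no Zbtb16 UMI. Il4 stood at 670 CPM over the 200 cells that met both and at 165 CPM over the 135 without a Zbtb16 UMI. It stood at 127 CPM over the 57 Zbtb16 cells outside and at 0.78 CPM over the 18708 cells that met neither. The 57 were not alike, with 10.9 and 249 CPM in the female and male libraries labelled knockout and 14.4 and 127 CPM in those labelled wild type. Only 7 of the 57 held Il4, and 49 and 27 of their 83 UMIs lay in 2 cells. Of the 90 cells with 3 or more Il4 UMIs, 85 were in the cluster, 72 held Zbtb16, 44 held Il4ra, 42 held Gata3 and 35 held Il13. The 18 of these cells in no class included 15 in the Il4 cluster, so the class of no Zbtb16 UMI is not free of these cells.

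Outside the cluster, 79 of 90 Il4 cells held 1 UMI, and 5 held 3 or more. The cell with 49 Il4 and 24 Il13 UMIs, from the male library labelled knockout, lay in the cluster led by Hbb-bs and Igkc. It had 29902 UMIs where that cluster's median is 14533. The cell with 27 Il4, 29 Il13 and 9 Zbtb16 UMIs, from the male library labelled wild type, lay in the cluster led by Foxp3 and Gpr83. It had 19956 UMIs where the median is 5012.5, and the part of doublets in either cell was not tested. Another cell, in the cluster led by Ccl5 and S100a6, held 20 Il4 and 14 Il13 UMIs and no Zbtb16.

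**Figure D2:**
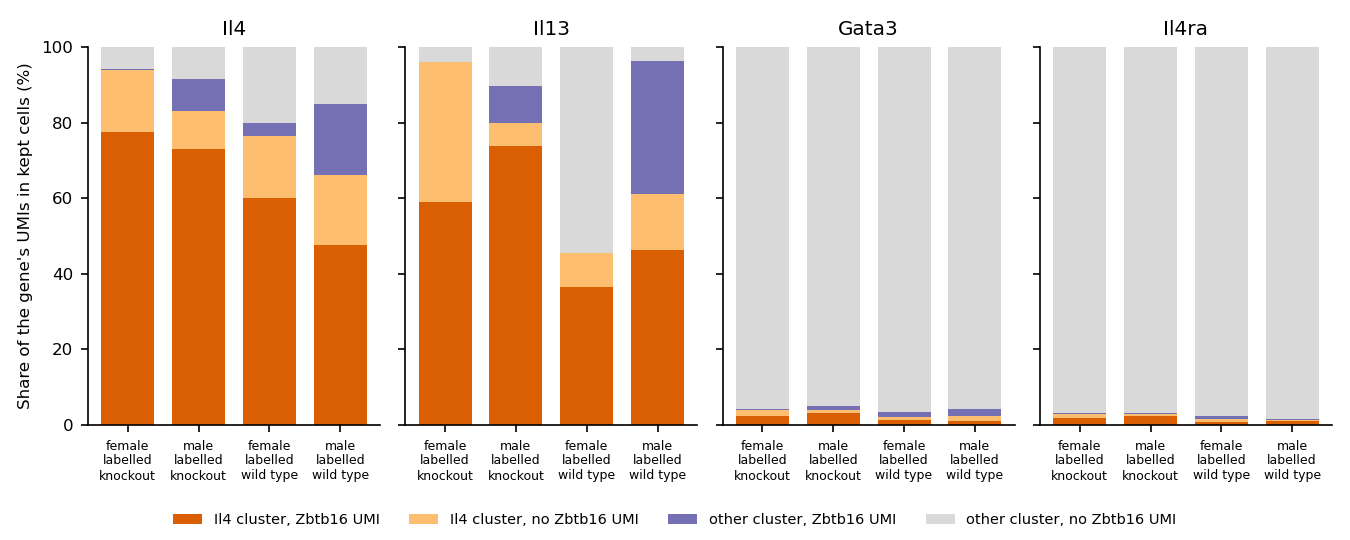
Share of each gene's UMIs in kept cells (%, stacked to 100) by library, split by the Il4 cluster and a Zbtb16 UMI. The Il4 cluster holds 66.2% to 94.0% of Il4 UMIs in each library, and cells outside it without Zbtb16 hold 95.1% to 96.7% of Gata3 UMIs.

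Cell types that could also make Il4 were looked for by their markers in the 90 cells with 3 or more Il4 UMIs. All 8 basophil and mast cell markers, among them Mcpt8 and Fcer1a, were at 0, as were both CD8 and all 6 myeloid markers. Of 8 follicular helper markers 4 were detected, at 142 CPM in sum and led by Sh2d1a with 43 UMIs, against 143 CPM over all kept cells, while Cxcr5, Il21, Tox2 and Sostdc1 were at 0. Of the type 2 innate lymphoid markers 5 of 8 were detected and summed to 10 UMIs. All 10 innate-like T markers were detected, at 2389 CPM in sum and led by Cxcr6 with 503 UMIs, against 118 CPM over all kept cells, where all 10 were detected too. The 10 regulatory T markers, led by the IL-2 receptor chain Il2ra with 684 UMIs, summed to 2548 CPM against 940 CPM. The 10 memory markers summed to 601 CPM against 289 CPM and the 5 CD4 T markers, led by Trac, to 1565 CPM against 1403 CPM. All of these were detected.

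In 3 of the 4 libraries most Il13 UMIs lay in cells that also held Il4. It had 124 UMIs in 29 cells of the female and 244 UMIs in 32 cells of the male library labelled knockout. The libraries labelled wild type held 11 UMIs in 8 cells (female) and 82 UMIs in 10 cells (male). Il13 cells held 4.28, 7.63, 1.38 and 8.20 UMIs each in that order. Of 79 Il13 cells, 45 also held Il4, and these carried 377 of the 461 Il13 UMIs (81.8%), while 45 of the 251 Il4 cells (17.9%) held Il13. The share of Il13 UMIs in Il4 cells was 75.8% and 84.4% in the female and male libraries labelled knockout. It was 89.0% in the male library labelled wild type and 36.4% in the female one, where it rests on 4 of 11 UMIs.

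Zbtb16 cells held 348 Il13 UMIs, cells of no class 113, and Foxp3 and S100a6 cells none. A count of 0 among 855 Foxp3 cells allows up to 0.351% of them to hold a UMI, and 0 of 71 S100a6 cells up to 4.23%. This limits the cells with a UMI and not the cells that express the gene. The share in Zbtb16 cells was 58.9% and 83.6% in the female and male libraries labelled knockout, and 36.4% and 81.7% in those labelled wild type. These groups overlapped. The log2 ratio of Il13 in Zbtb16 cells to cells of no class was 6.61 and 8.07 in the female and male libraries labelled knockout, and 5.14 and 8.92 in those labelled wild type. Il13 passed the filter on low counts through the Zbtb16 cells, where it is high, so this difference is a description with no test. Il5, the other cytokine of the locus, 86091 bases from Il13, had 2 UMIs in all kept cells.

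Gata3 was spread widely and peaked elsewhere. Its level over kept cells was 75.6 and 60.4 CPM in the female and male libraries labelled knockout, and 54.2 and 28.9 CPM in the female and male libraries labelled wild type. It was found in 4006 of 19100 cells (21%). In Foxp3 cells it reached 341, 268, 418 and 217 CPM in that order, above the Zbtb16 cells (137, 141, 88.3 and 95.3 CPM) in each library. In cells of no class it stood at 61.3, 47.5, 46.3 and 22.2 CPM. Foxp3 cells, 4.48% of all cells, held 21.3% of the Gata3 UMIs, and cells of no class 75%.

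Against cells of no class, Gata3 was higher by 2.60 ± 0.10 in Foxp3 cells (edgeR, adjusted p = 2.5e-19) and by 1.2 ± 0.17 in Zbtb16 cells (edgeR, adjusted p = 1.2e-06), on the log2 scale. In S100a6 cells its log2 difference was 0.07 ± 0.30 (edgeR, adjusted p = 0.89). In Foxp3 cells Gata3 was called of the 2 members tested, the other being Il4ra, where 37.1% of all genes were called. Il4 passed the count filter there through the cells of no class, where it is higher, so its log2 difference of -1.81 ± 0.65, which rests on 4 UMIs, is a description with no test. Il13 did not pass the filter.

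Over the 16 clusters the order of Gata3 began with the regulatory T-like cluster led by Foxp3 and Gpr83, at 381 ± 72.8 CPM (SD, n = 4 libraries). The memory-like cluster led by Ccl5 and S100a6 followed at 127 ± 43.5 CPM and the Il4 cluster at 107 ± 30.6 CPM, which did not differ beyond their spread. The next 9 clusters lay between 38.8 and 59.6 CPM, within the spread of their neighbours. The cluster led by Malt1 and Bend4 was lowest, at 14.5 ± 9.2 CPM. Clusters are described only, since the same cells defined them.

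**Figure D3:**
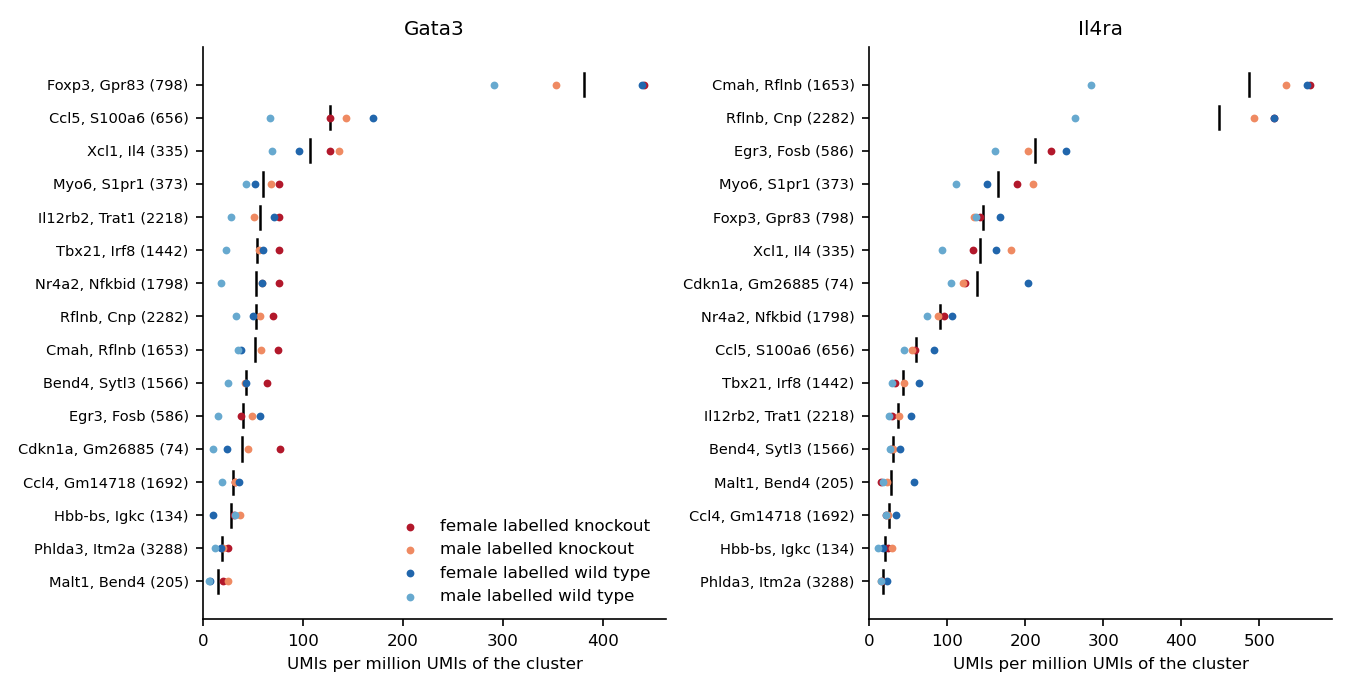
Gata3 (left) and Il4ra (right) in CPM of the cluster's UMIs (linear axis) in each of 16 clusters, named by leading genes with the number of cells; points are libraries and bars the mean of 4. Gata3 is highest in the cluster led by Foxp3 and Il4ra in the 2 clusters led by Cmah and Rflnb and by Rflnb and Cnp, and in both of those the male library labelled wild type is lowest.

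Il4ra, the receptor chain, was highest in other cells than the cytokines were. Its level over kept cells was 107.5 and 113.5 CPM in the female and male libraries labelled knockout, and 119.9 and 68.1 CPM in the female and male libraries labelled wild type. The groups overlapped. It peaked in the cluster led by Cmah and Rflnb at 486 ± 136 CPM (SD, n = 4 libraries) and in the one led by Rflnb and Cnp at 449 ± 124 CPM. These 2 neighbours did not differ beyond their spread. Together they held 7974 of its 14171 UMIs, and 76.2% of their cells had one. The cluster led by Phlda3 and Itm2a, the most numerous, was lowest at 17.5 ± 4.0 CPM.

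The Il4 cluster lay sixth for Il4ra, at 142 ± 38.5 CPM. Zbtb16 cells had 175, 160, 112 and 87.9 CPM in the order above, and Foxp3 cells 112, 116, 142 and 98.7 CPM. Their log2 differences from cells of no class were 0.17 ± 0.15 (edgeR, adjusted p = 0.45) and 0.01 ± 0.08 (edgeR, adjusted p = 0.94). The first became 0.35 (edgeR, adjusted p = 0.027) without the cluster led by Hbb-bs and Igkc. In S100a6 cells Il4ra fell to 30.9, 56.2, 50.2 and 23.2 CPM, by 1.94 ± 0.30 on the log2 scale (edgeR, adjusted p = 1.8e-07). It was the 1 member called of 3 tested there, where 30.3% of all genes were called. In that comparison the median of all genes moved from -0.18 with TMM scaling to 0.08 with RLE. Relative to that median Il4ra stayed lower, since its value with RLE was -1.68. The split of calls over all genes was 1368 higher and 1980 lower with TMM, and 1756 higher and 1310 lower with RLE.

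Zbtb16 had 167 and 326 UMIs in the female and male libraries labelled knockout, and 76 and 105 in the female and male libraries labelled wild type. Its cells were 1.33%, 1.68%, 1.54% and 0.811% of kept cells in that order, which overlapped between groups. Of 257 Zbtb16 cells 118 held 1 UMI and the highest held 15. In the Il4 cluster Zbtb16 stood at 236 ± 78.8 CPM (SD, n = 4 libraries), and in the next cluster, led by Ccl5 and S100a6, at 12 ± 17.9 CPM. A Zbtb16 UMI and a Foxp3 UMI met in 7 cells.

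The composition of the Zbtb16 class was not the same in every library. Outside the Il4 cluster lay 12.2% and 18.2% of its cells in the female and male libraries labelled knockout, and 42.9% and 40.5% in those labelled wild type. Basophil and mast cell markers summed to 1951 CPM in Zbtb16 cells of the female library labelled wild type, where all 8 were detected and Mcpt8 had 213 UMIs, and to between 17.1 and 164 CPM in the other 3. Within the Il4 cluster the same markers summed to between 5.92 and 10.1 CPM, with Mcpt8 at 0. Memory markers summed to 1879 and 2142 CPM in Zbtb16 cells of the female and male libraries labelled wild type, against 937 and 565 CPM in those labelled knockout. Gamma-delta T cell markers summed to 149 and 249 CPM in Zbtb16 cells of the female and male libraries labelled wild type, and to 68.3 and 15.5 CPM in those labelled knockout. Within the Il4 cluster they stood at 111 and 181 against 138 and 24.9 CPM, where all kept cells together had 9.64 CPM. Erythroid markers within the Il4 cluster came to 2.47 and 8.29 CPM in the female and male libraries labelled knockout, and to 552 and 4.31 CPM in those labelled wild type. The part of these cells and this RNA in the comparisons by label was not tested, and values within the Il4 cluster are given beside them.

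By label, Il4 was higher in the libraries labelled knockout, at 12.1 and 13.1 CPM (female, male) against 3.43 and 3.12 CPM. The fold was 3.54 in females and 4.18 in males. edgeR with sex as a term gave a log2 fold change of 1.90 ± 0.13 (adjusted p = 3.0e-06, Benjamini-Hochberg). Il13, at 3.63 and 5.12 against 0.686 and 1.76 CPM, rose by 1.71 ± 0.24 (edgeR, adjusted p = 0.0021), and Gata3 by 0.71 ± 0.11 (edgeR, adjusted p = 0.0046). Il4ra, at 0.23 ± 0.15 (edgeR, adjusted p = 0.81), and Zbtb16, at 0.84 ± 0.26 (edgeR, adjusted p = 0.24), were not called. Thus 3 of 5 members were called, where 1.21% of the 12855 genes tested were called. In bulk sums such as these, more cells of a type and more RNA per cell cannot be told apart. Foxp3 cells, the class with the highest Gata3, were 4.74% and 5.46% of the libraries labelled knockout and 2.26% and 3.59% of those labelled wild type, and their part in the Gata3 call was not tested. B cell markers summed to 167 and 79.7 CPM in the female and male libraries labelled knockout and to 28.8 and 26.8 CPM in those labelled wild type, without overlap. Erythroid markers stood at 14.9 and 24.0 CPM against 1412 and 43.0 CPM. The part of these cells or their RNA was not tested. Among the 90 cells with 3 or more Il4 UMIs, the B cell marker Ighm had 17 UMIs (24.7 CPM). The other 4 of the 5 B cell markers were at 0 there. Ighm, however, made up 10791 of the 11223 B cell marker UMIs of all kept cells. Of the 6 erythroid markers 4 were at 0 in these 90 cells, and the list summed to 2 UMIs. Gata3 levels in cells of no class are given above. Of the cells of no class 174 lay in the cluster led by Foxp3 and Gpr83, and their part was not tested either.

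With 1 library left out, 1 label has a single library, whose spread is assumed to be that of the other label, so these fits weigh little. Il4 kept its call without any 1 library (edgeR, log2 1.83 to 1.94, adjusted p 3.3e-05 to 0.011). Il13 lost its call without each of the 4 libraries in turn (edgeR, log2 1.22 to 2.63, adjusted p 0.068 to 0.55). Gata3 lost it without the female library labelled knockout (edgeR, log2 0.50, adjusted p = 1.0), without the male one (log2 0.82, adjusted p = 0.36) and without the male library labelled wild type (log2 0.29, adjusted p = 0.45). Il4ra was at 0.60 (edgeR, adjusted p = 0.033) without the female library labelled wild type and at -0.16 (edgeR, adjusted p = 0.39) without the male one. These fits carry no sex term, and over all 4 libraries without that term Il13 and Gata3 had edgeR adjusted p of 0.66 and 0.91.

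The Il4 difference also depended on which barcodes were summed. Kept cells held 60.1% and 71.3% of all Il4 UMIs in the female and male libraries labelled knockout, but 11.4% (female) and 52.5% (male) in those labelled wild type. Over all barcodes Il4 stood at 18 and 16.3 CPM in the libraries labelled knockout, and at 16.8 and 4.94 CPM in the female and male libraries labelled wild type. The values for females then lay close together. The log2 fold change over all barcodes was 0.78 for Il4 (edgeR, adjusted p = 0.41), 0.45 for Il13 (edgeR, adjusted p = 0.86) and 0.64 for Gata3 (edgeR, adjusted p = 0.057). None of these 3 passed the threshold.

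Free RNA itself was richer in Il4 than the cells. In barcodes under 200 UMIs Il4 reached 72.9, 46.6, 38.0 and 14.2 CPM, in the order female and male labelled knockout, then female and male labelled wild type. Each value is above the level in kept cells of the same library. Over these barcodes alone the log2 fold change was 1.08 for Il4 (edgeR, adjusted p = 0.016), 0.83 for Gata3 (edgeR, adjusted p = 0.0073) and 0.16 for Il13 (edgeR, adjusted p = 0.88). Which cells this RNA came from was not tested.

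**Figure D4:**
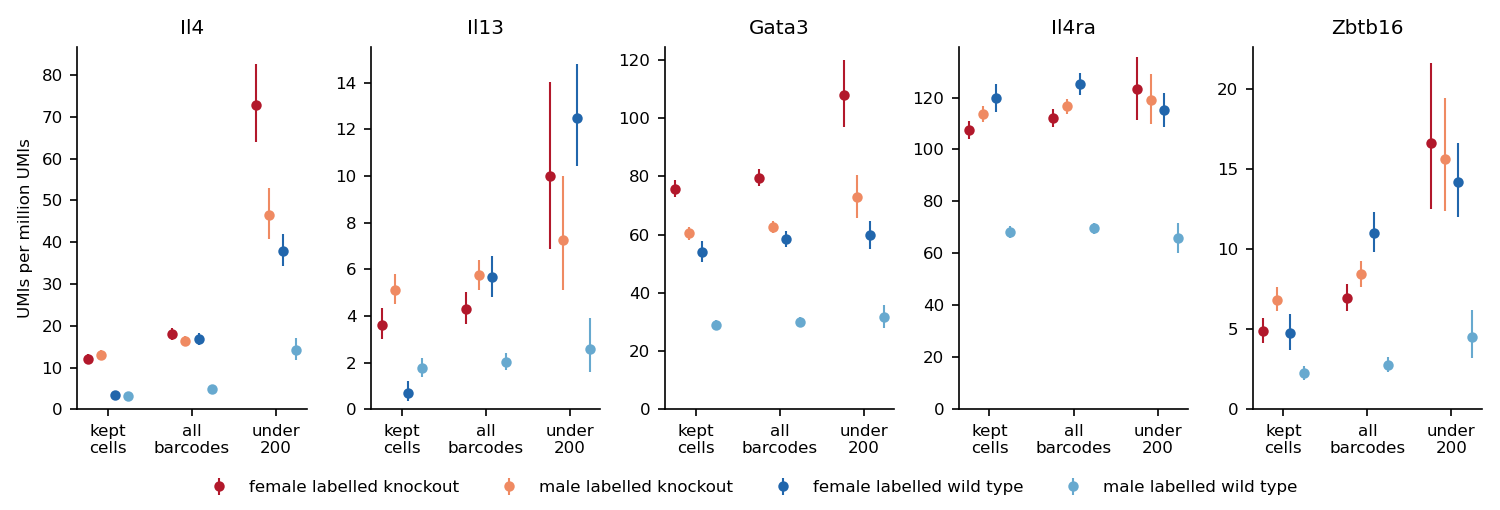
Level of each gene (CPM, linear axes from 0) in kept cells, in all barcodes and in barcodes under 200 UMIs, 1 point per library with an exact Poisson 95% interval. For Il4 the female library labelled wild type lies at 3.43 in kept cells and at 16.8 over all barcodes, beside the libraries labelled knockout.

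Within Zbtb16 cells Il4 was higher by 1.70 ± 0.19 on the log2 scale in the libraries labelled knockout (edgeR, adjusted p = 1.8e-15). Il13 was higher by 1.11 ± 0.25 (edgeR, adjusted p = 0.0009). Gata3, at 0.55 ± 0.27 (edgeR, adjusted p = 0.38), and Il4ra, at 0.72 ± 0.26 (edgeR, adjusted p = 0.11), were not called. So 2 of 4 members were called, where 3.22% of all genes tested were. Il13 lost its call with DESeq2 (adjusted p = 1.0), without the sex term (edgeR, log2 0.98, adjusted p = 0.43), without the female library labelled wild type (edgeR, log2 0.33, adjusted p = 0.71) and without the male library labelled knockout (edgeR, log2 0.64, adjusted p = 1.0). It stood at 1.31 (edgeR, adjusted p = 0.0049) without the female library labelled knockout and at 3.58 (edgeR, adjusted p = 4.0e-13) without the male library labelled wild type. The fits without a library also lack the sex term, so the library and the term cannot be told apart in them. Without that female library and that term Il4ra was called, at 0.93 (edgeR, adjusted p = 0.030).

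Within the Il4 cluster the Il4 levels were 481 and 611 CPM in the female and male libraries labelled knockout and 213 and 207 CPM in those labelled wild type. Il13 stood at 147 and 231 against 25.3 and 108 CPM. The fitted log2 differences were 1.30 ± 0.33 for Il4 (edgeR, adjusted p = 0.038) and 1.42 ± 0.35 for Il13 (edgeR, adjusted p = 0.031). Of all 6078 genes tested there 13 were called, 5 higher and 8 lower. The Il4 and Il13 calls hung on where the cluster's edge fell. Under 7 other groupings of the same cells the cluster held 325 to 425 cells and 84.4% to 84.6% of the Il4 UMIs. Il4 was called in 4 of the 7 (edgeR, log2 1.12 to 1.62, adjusted p 0.032 to 0.57) and Il13 in 3 (edgeR, log2 1.27 to 1.67, adjusted p 0.025 to 0.51).

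In cells without a Zbtb16 UMI, Gata3 rose by 0.71 ± 0.12 (edgeR, adjusted p = 0.034). Il4 differed by 1.09 ± 0.25 (edgeR, adjusted p = 0.12), Il13 by 1.47 ± 0.39 (edgeR, adjusted p = 0.21) and Il4ra by 0.22 ± 0.16 (edgeR, adjusted p = 0.89). With no filter on low counts Il4 had an adjusted p of 0.026 (edgeR). Gata3 was thus 1 called member of 4, where 0.501% of all genes were called. Il4ra was at 0.60 (edgeR, adjusted p = 0.043) without the female library labelled wild type and at -0.17 (edgeR, adjusted p = 0.37) without the male one. Without the male library labelled wild type Gata3 was at 0.27 (edgeR, adjusted p = 0.49), without the female one labelled knockout at 0.48 (adjusted p = 1.0) and without the male one labelled knockout at 0.82 (adjusted p = 0.38). With all 4 libraries and no sex term it was at 0.66 (edgeR, adjusted p = 0.89).

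Whether the label difference was larger inside than outside Zbtb16 cells was tested as an interaction. The log2 values were 0.68 ± 0.30 for Il4 (edgeR, adjusted p = 0.38), -0.55 ± 0.53 for Il13 (edgeR, adjusted p = 0.79), -0.04 ± 0.28 for Gata3 (edgeR, adjusted p = 0.99) and 0.62 ± 0.26 for Il4ra (edgeR, adjusted p = 0.34). No member of 4 was called by edgeR, and none by DESeq2, where 0.960% of all genes were called by edgeR. Among them Il4 and Il4ra, 2 of the 4, had an unadjusted edgeR p under 0.05 (0.024 and 0.018), as did 1134 of all 11360 genes tested. A difference between the 2 sets of cells was thus not shown.

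**Figure D5:**
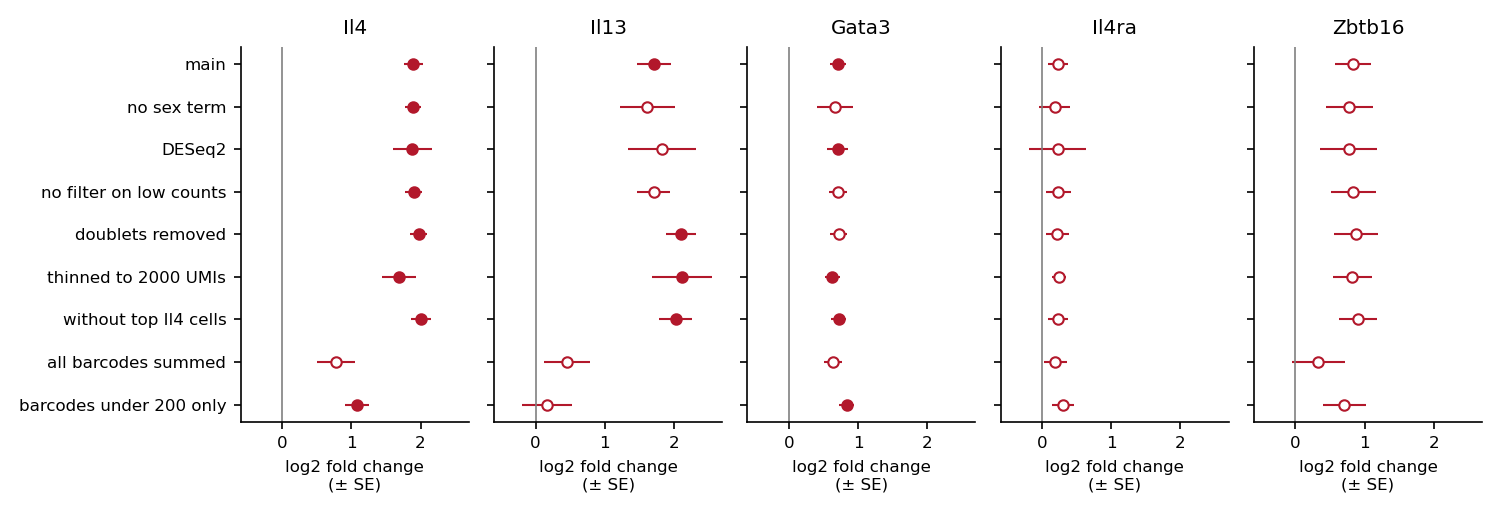
Log2 fold change (± SE, edgeR unless named) from libraries labelled wild type to libraries labelled knockout for each gene under 9 settings; filled points have an adjusted p under 0.05. Il4 lies between 1.69 and 2.01 except over all barcodes (0.78) and in barcodes under 200 UMIs (1.08).

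The mean number of Il4 UMIs per Il4 cell was 4.88 and 6.28 in the female and male libraries labelled knockout and 2.50 and 3.22 in those labelled wild type, without overlap. The median was 2 in the female library labelled knockout and 1 in the other 3. Single UMIs may come from free RNA, whose Il4 level is given above. If each kept cell held 200 UMIs of it, 89.4 and 60.6 cells would have an Il4 UMI in the female and male libraries labelled knockout, and 13.7 and 12.9 in those labelled wild type. Counted were 85 and 99, and 22 and 45. The part of free RNA in these counts was not tested. The share of cells with an Il4 UMI was 1.38% and 1.51% against 1.21% and 0.986%, and with a Gata3 UMI 22.4% and 22.3% against 22.9% and 16.3%. Thinned to 2000 UMIs per cell it was 0.890% and 0.779% against 0.496% and 0.350%. For Gata3 the thinned shares were 12.4% and 10% against 9.54% and 5.45%. Both thinned shares were without overlap between groups, with an exact two-sided permutation p of 0.333 for 2 against 2 libraries. For Il4ra the difference of the group means turned from -5.59 to 2.10 percentage points on thinning.

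Other genes of the pathway were read from a list of 71 genes by role. Over all kept cells 62 were tested, 9 were called higher by label and 0 lower, with a median log2 of 0.11 over the list and 0.00019 over all genes. Over all genes 1.21% were called, 104 higher and 51 lower. Besides Il4, Il13 and Gata3 these were Il1rl1, the IL-33 receptor (1.57 ± 0.34), and Nfil3, a factor induced by IL-4 (0.73 ± 0.14). Tnfrsf4, the costimulatory receptor OX40, rose by 0.58 ± 0.09 and Rora, a nuclear receptor, by 0.58 ± 0.08. Batf, an AP-1 factor needed for T helper differentiation, rose by 0.43 ± 0.08, and Il2rb, a chain of the IL-2 and IL-15 receptors, by 0.36 ± 0.08. Their edgeR adjusted p ran from 0.0020 to 0.047. Of these 6 calls besides the members, none held without the sex term, with no filter on low counts, or without either library labelled knockout. With DESeq2 and without the male library labelled wild type Tnfrsf4 alone was called, and Tnfrsf4 and Rora were without the female one. All 6 kept their direction in these fits. Among the 13 signalling genes none was called, Stat6, which carries the IL-4 signal, being at -0.03 ± 0.08, and the common receptor chain Il2rg stood at -0.11 ± 0.09. Foxp3 cells took the larger shares of the libraries labelled knockout given above, as did the Il4 cluster. Nfil3, Tnfrsf4, Rora, Batf and Il2rb were higher in Foxp3 cells than in cells of no class (edgeR). Il1rl1 passed the count filter there through the Foxp3 cells only and is described only. Zbtb16 cells were also higher for Rora (log2 4.79), Il2rb (3.49) and Nfil3 (2.80) and lower for Tnfrsf4 (-1.58). Batf and Il1rl1 were not called in them. The part of Foxp3 cells and Zbtb16 cells in the calls by label was not tested.

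Inside Zbtb16 cells 46 list genes were tested, and 5 rose: Il4, Il13, Rora (0.73 ± 0.17), Junb (0.60 ± 0.16) and the costimulatory receptor Icos (0.58 ± 0.16). Maf, a factor that drives Il4 transcription, fell by 1.06 ± 0.25 (edgeR, adjusted p = 0.0014). For Maf (-1.44 ± 0.32) and Junb (0.78 ± 0.18) the interaction itself was called (edgeR, adjusted p = 0.0051 and 0.0072). With DESeq2 none of Rora, Junb, Icos and Maf was called inside Zbtb16 cells, and of the interactions only that of Maf. Rora alone was called without the sex term, Maf alone without the female library labelled knockout, and none without the male one, while Icos lost its call without the male library labelled wild type. Within the Il4 cluster none of the 4 was called, and Maf turned to 0.67 ± 0.42 (edgeR, adjusted p = 1.0), with an interaction of 0.16 ± 0.42. Maf is also a leading gene of the memory-like cluster. In Zbtb16 cells the memory marker S100a6 was at 93.9 and 13.1 CPM in the libraries labelled knockout (female, male). In those labelled wild type it was at 241 and 308 CPM. These levels rest on few cells. At least 2 S100a6 UMIs were found in 4 and 2 Zbtb16 cells labelled knockout and in 3 and 2 labelled wild type. The part of such cells in the Maf value was not tested. Over all genes in Zbtb16 cells 3.22% were called, 41 higher and 136 lower. In cells without a Zbtb16 UMI 2 of 61 list genes rose, Gata3 and Tnfrsf4 (0.59 ± 0.08), neither of them called without the sex term or without either library labelled knockout, where 0.501% of all genes were called, 48 higher and 16 lower.

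Of the list genes that passed the count filter in Zbtb16 cells and in cells of no class alike, 37 of 52 differed between them, 22 higher and 15 lower (edgeR). Another 6 passed through 1 set of cells only, Il13 among them, and are not counted. Over all genes 29.1% were called, 1580 higher and 1706 lower, and 1629 and 1153 with DESeq2. Among list genes higher in Zbtb16 cells were Cxcr6, a chemokine receptor (6.40 ± 0.17), Rora (4.79 ± 0.15), the cytokine Csf2 (4.51 ± 0.24) and Maf (4.40 ± 0.23). Lower were Bcl6, the follicular helper factor (-2.16 ± 0.28), Tnfrsf4 (-1.58 ± 0.22) and Cd4 itself (-1.31 ± 0.22). Of the 11 genes of the innate-like programme counted here 3 were higher, Cxcr6, Id2 and Il2rb, and 6 lower, Cd4, Slamf1, Slamf6, Id3, Fyn and Egr2. Among the 3 neighbours of the cytokine locus counted here, Irf1 was lower by 0.97 ± 0.14 (edgeR, adjusted p = 2.3e-06) and Kif3a, 1014 bases from Il4, was higher by 1.84 ± 0.35 (edgeR, adjusted p = 0.00013). Rad50, which lies between Il13 and Il5 and 14816 bases from Il13, was at 0.06 ± 0.17 (edgeR, adjusted p = 0.82).

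By the same count Foxp3 cells differed in 37 of 52 list genes, 26 higher and 11 lower (edgeR), where 37.1% of all genes were called, 2080 higher and 2115 lower. With Gata3 the tissue repair factor Areg (5.01 ± 0.16), Maf (4.34 ± 0.14) and Batf (1.87 ± 0.10) were higher. S100a6 cells differed in 28 of 51, 12 higher and 16 lower, where 30.3% of all genes were called, in the split given above that turns with the scaling. Among them were Maf at 5.36 ± 0.27 and Irf4, a factor induced through the T cell receptor, at -2.90 ± 0.22. Of 10 genes of the innate-like programme 6 were higher there and 2 lower.

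Genes with the pattern most like a member were ranked by Pearson's r over 52 sums of a cluster and a library with at least 50 cells, among 10129 genes, on log2 of CPM plus 1. These sums share libraries, depth and cells, so r is a description. For Il4 the order was Il13 (0.93), Zbtb16 (0.86), the transferrin gene Trf (0.84), Dgat1 (0.81) and Klrc1 (0.80). Without the 2 sums from the Il4 cluster these fell to between 0.42 and 0.72. For Gata3 the order was Gm28112 (0.81), Sdf4 (0.79), Man1a (0.79), Rap1gds1 (0.78) and Gm10130 (0.77), and these stayed between 0.76 and 0.80 without those 2 sums.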

How the data were processed

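Counts of UMIs per gene and barcode were deposited by the authors, unfiltered, for 4 libraries of 10x Genomics 3′ v3.1 chemistry. Per the submitters' processing notes Cell Ranger 6.0.2 and mm10 were used, while per the file headers the matrices came from Cell Ranger 4. Gene positions are from GENCODE M21 and promoters from RefSeq, both GRCm38. Members and gene lists were chosen with earlier results of these data known.

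Counts were summed per library, class or cluster and tested with edgeR 4.0.16 (TMM, filterByExpr, quasi-likelihood, Benjamini-Hochberg over all genes tested, threshold 0.05), with sex or library as a term. DESeq2 1.42.0 was an alternative, and the code was tested on simulated counts. Clusters came from scanpy 1.11.5 and leidenalg 0.10.2 (2000 variable genes centred per library, 30 components, 15 neighbours, resolution 1). Doublets were not removed, except in an alternative that took the highest scrublet scores. The caller's own threshold marked 0.0324% to 2.00% of a library's cells. Other alternatives were the sex term, scaling, count filter, UMI minimum (1000, 4000), thinning to 2000 UMIs, class limits and each library left out. Sums over other barcodes, removal of the highest Il4 cell, removal of the cluster led by Hbb-bs in class comparisons and other groupings were chosen after seeing the data. Other groupings were added when a change in the numerical precision of the components moved the call inside the Il4 cluster across the threshold.

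Named genes were the 5 members, list genes called over all kept cells, Il5, Stat6, Maf and Il2rg, and the 5 genes most like Il4 and Gata3. List genes named from the other comparisons, and single cells, were picked after their values were seen. A leading gene of 1 cluster is not reported here. Genes are counted at their 3′ ends, so reads from overlapping genes may be shared.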

Additional observations from a re-analysis of the deposited data

Results flagged for a closer look

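Il4ra moved in opposite directions in the sexes. Its log2 ratio of labelled knockout over labelled wild type was -0.16 in females and 0.74 in males, and the difference between sexes was not tested, with 1 library for each. The share of Zbtb16 cells differed by -0.216 percentage points in females and 0.871 in males. That of S100a6 cells differed by 0.0446 in females and -0.202 in males, also untested.

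The Il4 level in Zbtb16 cells over cells of no class was 6.83 on the log2 scale in the female library labelled wild type, apart from 7.95, 7.87 and 7.79 in the other 3. It was the only one set apart of 7 such sets of ratios, and chance sets a library this far apart in about 1 in 20 sets.

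Barcodes under 200 UMIs, which no comparison of cells used, held 991 Il4, 221 Il13, 1612 Gata3, 2756 Il4ra and 320 Zbtb16 UMIs over the 4 libraries.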

How the results depend on the processing

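The labels number no replicates. The sex term pairs the libraries of each sex, and values without this pairing are those given without the sex term. Counts of genes called by label over all kept cells (155) moved to 7 without the sex term, 47 with DESeq2, 20 with no filter on low counts, 254 at 1000 UMIs, 46 with doublets removed, 92 without the cluster led by Hbb-bs and Igkc, and 86 over all barcodes. In Zbtb16 cells (177) they moved to 73 without the sex term, 6 with DESeq2 and 13 in the Il4 cluster, and to 2, 4, 6, 8, 13, 14 and 14 in its other groupings. In cells without a Zbtb16 UMI (64) they moved to 7, 39 and 223 without the sex term, with DESeq2 and with no filter, and to 163 outside the Il4 cluster. For the interaction (109) the counts were 26 with DESeq2 and 20 for the Il4 cluster. Thinning to 2000 UMIs gave 2026, 2351 and 1520 for Zbtb16 (3286), Foxp3 (4195) and S100a6 (3348) cells, and a limit of 4 S100a6 UMIs gave 2001. Fewer UMIs or cells enter the last 2 settings, and the cause of none of these changes was tested.

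With 1 library left out, the counts ran from 43 to 117, from 23 to 253 and from 26 to 83 for the 3 label comparisons, and from 2565 to 3128, 2796 to 3961 and 2156 to 3160 for the 3 classes.

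Over all kept cells Gata3 lost its call without the sex term (0.67), with no filter (0.71), with doublets removed (0.72) and over all barcodes (0.64). Il13 lost it in the same way without the sex term (1.62), with DESeq2 (1.83), with no filter (1.71), over all barcodes (0.45) and in barcodes under 200 UMIs (0.16). Il4 lost it over all barcodes only (0.78). Il4ra turned to -0.22 at 4000 UMIs. With 1 library left out the ranges were 1.83 to 1.94 for Il4, 1.22 to 2.63 for Il13, 0.29 to 1.14 for Gata3, -0.16 to 0.60 for Il4ra and 0.28 to 1.29 for Zbtb16; the last of these was never called. Outside the Zbtb16 cells Il4ra ran from -0.17 to 0.60.

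Other reversals were of values not called: Il13 in the interaction (1.34 for the Il4 cluster, 0.27 with DESeq2), Il4ra in Foxp3 cells (-0.025 with no filter, -0.13 thinned, -0.0026 without the Hbb-bs cluster, -0.099 to 0.095 with 1 library left out) and Gata3 in S100a6 cells (-0.70 with 4 S100a6 UMIs, -0.018 with no filter, -0.34 thinned, -0.033 to 0.41 with 1 library left out). Differences of shares turned at 2 Zbtb16 UMIs for Il4 (-14.1 points) and Il13 (-0.370), and on thinning for cells with Il4ra (2.10). With 1 library left out they ran from -10.5 to 34.9 for Il13 UMIs and from -0.243 to 1.38 for Gata3 UMIs in Zbtb16 cells. For shares of cells they ran from -0.0393 to 0.694 for Zbtb16, from -0.215 to 0.0570 for S100a6 and from -0.512 to 6.02 for cells with Gata3. Of 292 fold changes of the members under alternatives, 236 kept direction and side of the threshold, 37 lost the call, 5 gained it and 14 reversed. Kept cells were fewest in females labelled wild type (1814), with 11 Il13 UMIs and 28 Zbtb16 cells among them.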
